A study of Mus musculus with 73 samples.

Results

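Interferon-stimulated genes were described across 73 mouse mammary tumours profiled by RNA sequencing. The set holds 33 genes named as a list, with no threshold on their values, out of 39438 rows of the deposited count table. Of the 33, 32 had a row in that table and all 32 were tested in every comparison. The count table has no row under the symbol Irgm1, which was read from the deposited log2 table. By role the set holds the IFIT proteins Ifit1, Ifit2 and Ifit3; the OAS family genes Oas1a, Oas2, Oas3, Oasl1 and Oasl2; Isg15 and its deconjugating enzyme Usp18; the transcription factors Irf1, Irf7, Irf9 and Stat2; the nucleic acid sensors Ifih1, Ddx58, Dhx58 and Zbp1. It also holds the antiviral effectors Mx1, Mx2, Rsad2, Isg20, Bst2, Ifi44 and Cmpk2, the GTPases Gbp2, Gbp3, Igtp, Irgm1 and Iigp1, and the interferon-induced genes Xaf1, Rtp4 and Parp14.

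Type I interferons signal through JAK kinases to a complex that includes STAT2 and IRF9 and binds the interferon-stimulated response element (ISRE). Interferon gamma signals through JAK kinases to factors that bind the gamma-activated site (GAS) and raise IRF1 and many GTPases of the GBP and IRG families. In a tumour these genes can be transcribed by the cancer cells and by the leukocytes and stroma around them. In RNA from whole tumours, fewer cells of a type and less RNA per cell cannot be told apart.

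The promoters of the genes carry these elements unevenly, and 7 of them are shown here as examples of both motifs. RefSeq windows on GRCm38.p6, from 250 bases before to 50 after the start, were given for 24 of the 33 genes; Mx1, Mx2, Oas2, Usp18, Dhx58, Rtp4, Zbp1, Parp14 and Iigp1 had no entry. The ISRE core (GAAA, any 2 bases, GAAA), searched on both strands, was found in 14 of the 24 (58.3%) and in 3.99% of 27025 genes with a window. The GAS letters TTCNNNGAA, searched on both strands, were found in 6 of the 24 (25%) and in 9.55% of the genes. Oas1a, Bst2 and Igtp held both motifs, and Oasl1, Oasl2, Irf7, Irf9, Ifi44, Xaf1 and Cmpk2 held neither in these windows. A match describes the letters only. Each line below gives the bases around 1 match, 5′ to 3′ along the gene's strand, with the motif in capitals. Where the ISRE core lies on the opposite strand, the capitals show its reverse complement.
Ifit1, chr19:34640760-34640819, plus strand, ISRE core: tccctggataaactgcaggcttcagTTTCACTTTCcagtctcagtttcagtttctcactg
Ifit3, chr19:34583382-34583441, plus strand, ISRE core: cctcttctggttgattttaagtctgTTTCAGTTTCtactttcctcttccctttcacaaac
Rsad2, chr12:26456538-26456597, minus strand, ISRE core: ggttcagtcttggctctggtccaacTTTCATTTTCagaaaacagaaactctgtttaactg
Isg15, chr4:156200856-156200915, minus strand, ISRE core: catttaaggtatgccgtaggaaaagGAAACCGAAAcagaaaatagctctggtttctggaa
Gbp2, chr3:142620579-142620638, plus strand, ISRE core: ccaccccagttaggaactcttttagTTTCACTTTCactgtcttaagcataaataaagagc
Igtp, chr11:58199497-58199555, plus strand, ISRE core: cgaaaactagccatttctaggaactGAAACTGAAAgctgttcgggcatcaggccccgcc
Igtp, chr11:58199486-58199544, plus strand, GAS: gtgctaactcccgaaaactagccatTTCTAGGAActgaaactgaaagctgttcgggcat
Irf1, chr11:53769899-53769957, plus strand, GAS: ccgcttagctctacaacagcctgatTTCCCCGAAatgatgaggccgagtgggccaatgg

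In Igtp the GAS letters and the ISRE core lie 1 after the other in the same stretch. Irf1, itself a transcription factor of the interferon gamma response, held the GAS letters and no ISRE core. The 33 genes lie on 14 chromosomes in the GRCm38 annotation, and 14 of them form 6 groups of neighbours within 1000000 bases. These groups are Ifit1 with Ifit2 and Ifit3, Oas1a with Oas2 and Oas3, Oasl1 with Oasl2, Mx1 with Mx2, Gbp2 with Gbp3, and Rsad2 with Cmpk2. Within the Ifit, Oas, Mx, Gbp and IRG families, near-identical copies can share reads, so the split of counts between copies is uncertain.

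The tumours fall into 8 groups. Those labelled KB1(L1363P)P, abbreviated L1363P here, comprised 3 adenocarcinomas, 9 carcinosarcomas and 9 sarcomatoid tumours. Those labelled KP comprised 5 adenocarcinomas and 3 carcinosarcomas. The remaining groups were adenocarcinomas: 11 labelled KB1P, 10 of the same genotype label with KB1PM in the title, and 23 labelled KB2P. As background, KP, KB1P and KB2P are established models in which a keratin promoter drives Cre to delete Trp53 alone, or with Brca1 or Brca2, in mammary epithelium; L1363P names a missense change in Brca1. The labels give no ages and do not say that tumours came from separate animals, so the p-values measure the spread between these samples. L1363P carcinosarcomas 54.1 and 54.2 share the number 54 in their titles. Leaving out 54.2 left 0 of the 32 genes called in each comparison with L1363P carcinosarcomas. These comparisons also called 0 with 54.2 in, so the refit cannot show whether the shared number matters.

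The libraries held 7325180 to 31615237 counts. All L1363P and KP libraries came from run 5625, and none of the others did, so genotype and run cannot be told apart in comparisons across that line. KB1P, KB1PM and KB2P titles shared no run with each other, so genotype or title cannot be told apart from run between them. Several libraries stood against their labels. KP adenocarcinoma 90.01A is labelled 100% epithelial, but its 9 epithelial markers summed to 250.6 CPM (counts per 1000000) against 2552 to 6005 in the other 4, and its 8 macrophage markers to 5308 against 405.0 to 1679. KB2P tumour 30 and KB1PM tumour 8, also labelled 100% epithelial, summed to 14.8 and 159.2 CPM over the epithelial markers. L1363P carcinosarcomas 4 and 17 are labelled 2% and 5% epithelial, against 40% to 98% in the other carcinosarcomas. Many calls and medians that rest on these libraries are given with and without them. L1363P against KP in carcinosarcomas and the interaction were not refitted without carcinosarcomas 4 and 17.

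Levels were lowest in the KB2P tumours and highest in the KP carcinosarcomas, with wide overlap. The mean log2 CPM over the 32 genes had a median of 2.72 in KB2P (lowest 1.55, highest 6.99, n = 23), 4.40 in KB1P (2.40 to 5.56, n = 11) and 4.31 in KB1PM (1.91 to 6.84, n = 10). In L1363P it was 4.68 in adenocarcinomas (3.86 to 5.47, n = 3), 6.42 in carcinosarcomas (3.69 to 7.31, n = 9) and 5.78 in sarcomatoid tumours (4.14 to 7.70, n = 9). In KP it was 5.72 in adenocarcinomas (2.33 to 7.48, n = 5) and 7.12 in carcinosarcomas (6.88 to 7.39, n = 3). Neighbours in this order overlapped in range. The KP carcinosarcomas lay above all L1363P, KB1P and KB1PM adenocarcinomas. The highest KP carcinosarcoma, 7.39, was passed by sarcomatoid tumour 20, 7.70, and by KP adenocarcinoma 90.01A, 7.48.

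**Figure D1:**
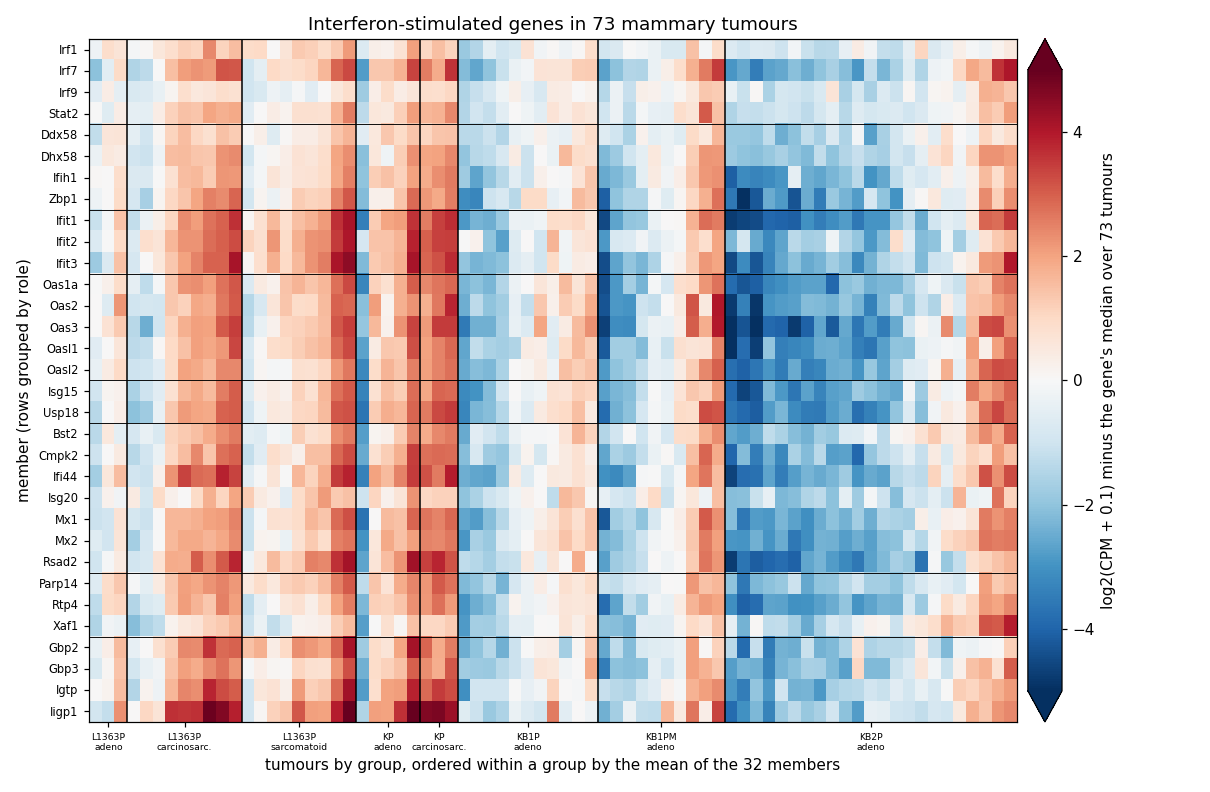
Level of each of the 32 genes (rows, by role) in each of the 73 tumours (columns, by group), as log2(CPM + 0.1) minus the gene's median over the 73 tumours. The genes of a tumour lie mostly to the same side of their medians, and KB2P holds both low columns and a few high ones.

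**Figure D2:**
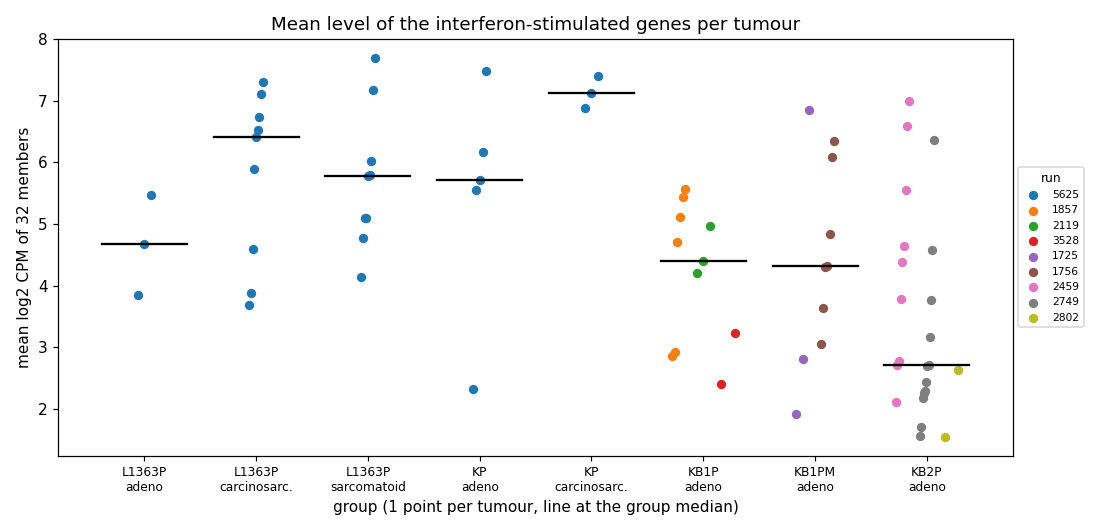
Mean log2 CPM over the 32 genes, 1 point per tumour, by group, coloured by run, with the line at the group's median. KP adenocarcinomas run from 2.33 to 7.48 and KB2P from 1.55 to 6.99, while the 3 KP carcinosarcomas sit between 6.88 and 7.39.

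Ifit1, an RNA-binding inhibitor of translation, shows the pattern. It stood at 8.11, 16.5 and 47.6 CPM in the 3 L1363P adenocarcinomas, at 1.59, 42.8, 69.3, 75.6 and 218.8 in the KP adenocarcinomas and at 104.2, 192.4 and 229.2 in the KP carcinosarcomas. The lowest, median and highest values were 7.54, 75.5 and 225.1 CPM in L1363P carcinosarcomas and 19.1, 54.5 and 312.0 in sarcomatoid tumours. They were 2.36, 14.6 and 37.0 in KB1P, 0.685, 15.9 and 122.6 in KB1PM and 0.571, 2.23 and 203.1 in KB2P. The KB2P tumours span 356-fold, from tumour 26 to tumour 13, and overlap every other group.

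Isg15, a ubiquitin-like protein, was at 15.4, 32.5 and 34.8 CPM in L1363P adenocarcinomas. Its KP adenocarcinomas were at 2.84, 51.2, 69.3, 84.5 and 206.1 and its KP carcinosarcomas at 113.8, 211.8 and 224.1. In KB2P it ran from 1.11 to 226.5 around a median of 6.31. As with Ifit1, all 3 KP carcinosarcomas lay above 4 of the 5 KP adenocarcinomas. Usp18, which removes ISG15 from its targets, was at 5.77, 15.2 and 19.4 CPM in L1363P adenocarcinomas, and at 1.11, 36.6, 48.8, 54.7 and 114.4 in KP adenocarcinomas. Its KP carcinosarcomas stood at 93.5, 150.0 and 173.6 CPM. The KB2P tumours had a Usp18 median of 2.64 and reached 154.7 in tumour 2.

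Irf7, which amplifies type I interferon production, stood at 10.7, 31.3 and 85.8 CPM in L1363P adenocarcinomas, at 6.30, 114.2, 114.4, 147.9 and 460.8 in KP adenocarcinomas and at 160.0, 265.6 and 549.4 in KP carcinosarcomas. Its highest value in the series was 729.3 CPM, in KB2P tumour 13, where the group's median was 14.6. Irf1 was far more even: 58.9, 107.3 and 127.8 CPM in L1363P adenocarcinomas, 43.6, 81.8, 85.1, 116 and 290.9 in KP adenocarcinomas and 142.9, 150.0 and 195.8 in KP carcinosarcomas. In KB2P Irf1 ran from 26.7 to 145.1 around a median of 50.9. KP adenocarcinoma 90.01A was the highest and 89.01A the lowest of its group for both factors.

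Gbp2, an interferon gamma-inducible GTPase, was at 29.6, 48.3 and 113.5 CPM in L1363P adenocarcinomas, at 11.2, 59.7, 72.7, 151 and 687.3 in KP adenocarcinomas and at 139.8, 226.0 and 287.8 in KP carcinosarcomas. The 687.3 CPM of 90.01A were the highest Gbp2 value of all 73 tumours. In the 9 L1363P carcinosarcomas Gbp2 ran from 28.8 to 468.5, with tumour 4 highest, and in KB2P from 2.59 to 87.6. Iigp1, an IRG GTPase, stood at 6.55, 7.85 and 73.03 CPM in L1363P adenocarcinomas, with 1 tumour of the 3 apart, and at 5.195, 61.2, 63.0, 191 and 571.1 in KP adenocarcinomas. Its KP carcinosarcomas were at 289.1, 377.7 and 399.7. Rsad2, the antiviral enzyme viperin, was at 1.94, 19.9, 37.4, 60.8 and 232.7 CPM in KP adenocarcinomas and at 113.0, 136.2 and 179.0 in KP carcinosarcomas. Ifit2 had 11.6, 55.7, 56.1, 67.8 and 303.2 CPM in the former and 166.1, 223.2 and 229.7 in the latter. For Rsad2, Ifit2, Gbp2 and Iigp1 alike, 90.01A was above and 89.01A below all other KP adenocarcinomas. Irgm1, on the deposited log2 scale of normalised counts, had group medians from 9.88 in KB2P to 12.27 in KP carcinosarcomas.

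Among the histologies of L1363P, the genes were higher in sarcomatoid tumours and carcinosarcomas than in adenocarcinomas by estimate, and 1 of them passed the test. Fold changes are log2 values from edgeR's quasi-likelihood fit over the 29 tumours of run 5625, called at a Benjamini-Hochberg adjusted p under 0.05 over 16147 genes. Against adenocarcinomas, Ifit2, an IFIT protein, rose in sarcomatoid tumours by 2.26 (SE 0.87, adjusted p = 0.0487), from 12.7, 20.6 and 41.5 CPM to a range of 36.6 to 346.3 with a median of 95.2. It was above all 3 adenocarcinomas in 7 of the 9 tumours. The call of 1 of 32 stands beside 30.6% of all genes called in this comparison. The median log2 fold change of the 32 genes was 1.39 against -0.09 for all genes. Of the 32, 4 had an unadjusted p under 0.05, beside 6865 of 16147 genes. Rsad2 had 2.61 (SE 1.12, adjusted p = 0.0771) and Ifit3 2.49 (adjusted p = 0.0995). Leaving out any 1 of the 3 adenocarcinomas (7.2, 26.2 or 52) ended the Ifit2 call. All 8 macrophage markers also rose in this comparison, from sums of 437.4 to 829.5 CPM to sums of 2565 to 4091, and all 9 epithelial markers fell; their part in the Ifit2 difference was not tested.

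Carcinosarcomas against adenocarcinomas of L1363P gave no call for the genes by edgeR, beside 2.70% of all genes. At an unadjusted p under 0.05 there were 3 of the 32, beside 3291 of 16147 genes. Neither DESeq2 nor limma called any of the 32 there, nor in any other comparison between groups in which edgeR called 0. All 32 estimates were positive, with a median of 1.52 against 0.01 for all genes; the genes move together between tumours, so these directions are not independent. Iigp1 had 2.71 (adjusted p = 0.249), Rsad2 2.45 (adjusted p = 0.214) and Irf7 2.07. The carcinosarcomas were split: tumours 45, 6 and 18, labelled 85%, 95% and 40% epithelial, were low, and the other 6 were high. Without carcinosarcomas 4 and 17 the median was 1.05. Sarcomatoid tumours against carcinosarcomas gave no call by edgeR among the 32, beside 21.5% of all genes. None of the 32 had an unadjusted p under 0.05, beside 5777 of 16147 genes. The median there was -0.16, and 0.25 without tumours 4 and 17. Across the 9 carcinosarcomas, the slope per 10 points of labelled epithelial percentage gave no call by edgeR, beside 8.71% of all genes. An unadjusted p under 0.05 was seen for 2 of the 32, beside 3112 of 12037 genes. DESeq2 called 2 of the 32, beside 2247 of 12037. The median slope was -0.09, and 0.27 without tumours 4 and 17, so the sign rests on those 2 tumours. Without them edgeR called 0 of 12534 genes.

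In KP, all 32 estimates were higher in the 3 carcinosarcomas than in the 5 adenocarcinomas, with a median of 1.03. None passed by edgeR, beside 0% of all genes called. None had an unadjusted p under 0.05, beside 1926 of 16147 genes. Oas2, a double-stranded RNA sensor that makes 2-5A, had 1.52 (adjusted p = 0.522) and Usp18 1.45. Without adenocarcinoma 90.01A the median was 1.78, with no call by edgeR; without 89.01A it was 0.72. Irgm1, in limma's test on the log2 table, had 1.69 (SE 0.82, adjusted p = 0.533).

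L1363P against KP shares 1 run. In adenocarcinomas all 32 estimates were lower in L1363P, with a median of -1.28. None passed by edgeR, beside 0.211% of all genes. Of the 32, 2 had an unadjusted p under 0.05, beside 2573 of 16147 genes. Iigp1 had -2.61 (adjusted p = 0.348) and Rsad2 -2.56 (adjusted p = 0.283). The median was -0.54 without KP adenocarcinoma 90.01A and -1.58 without 89.01A. In carcinosarcomas the median was -0.90, with Usp18 at -1.35 (adjusted p = 0.935) and no call by edgeR, beside 0% of all genes. None of the 32 had an unadjusted p under 0.05, beside 741 of 16147 genes. The carcinosarcoma effect itself, compared between L1363P and KP as an interaction, gave no call by edgeR among the 32, beside 0.0124% of all genes. None of the 32 had an unadjusted p under 0.05, beside 2422 of 16147 genes. The interaction's median of 0.44 became -0.18 without 90.01A.

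**Figure D3:**
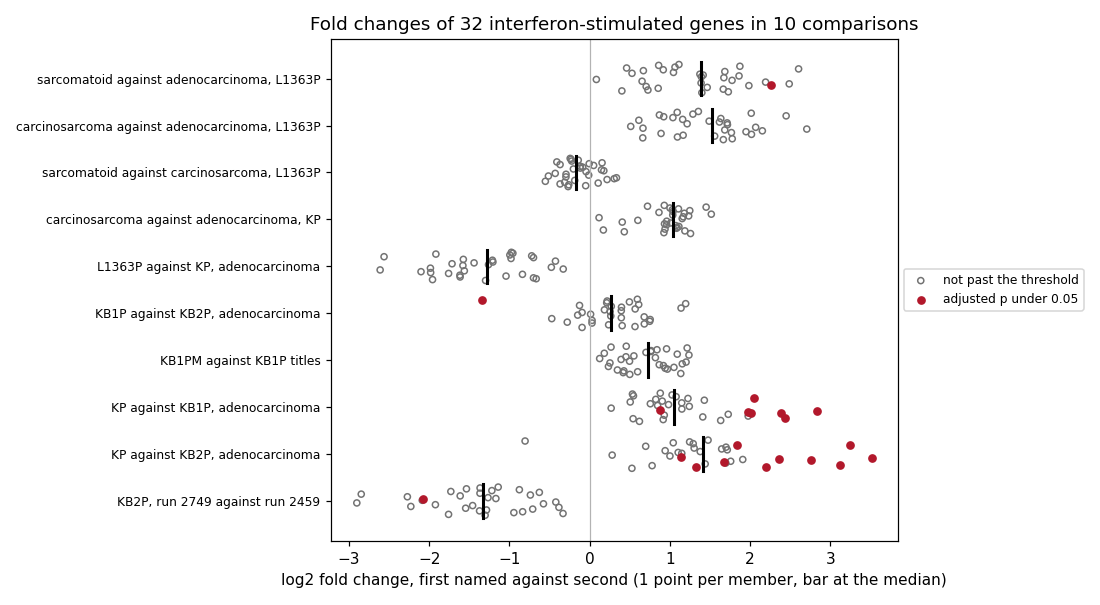
Log2 fold change of each of the 32 genes in the comparisons drawn, 1 point per gene, filled where the adjusted p was under 0.05, with a bar at the median of the 32. The KB2P runs are included. L1363P against KP in carcinosarcomas and the interaction are not drawn. Nor are L1363P against KB1P and against KB2P, where 13 and 20 of the 32 estimates were positive. Points lie mostly to 1 side of 0 within a drawn comparison, and 17 of the 20 calls stand in KP against KB1P and KP against KB2P. Both shares of the 32 were below the shares of all genes called there, 27.3% and 35.3%. Without KP adenocarcinoma 90.01A, 0 and 5 of the 32 were called by edgeR, beside 3105 and 4607 of 18472 genes.

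Among adenocarcinomas without the L1363P change, KB1P tumours (both titles, 21) against KB2P (23) gave 1 call of 32, a lower Xaf1, beside 13.2% of 18492 genes. Genotype and run cannot be told apart in this comparison. Xaf1, an interferon-induced gene linked to apoptosis, fell by 1.34 on the log2 scale (-1.34, SE 0.43, adjusted p = 0.0261). Its mean was 35.2 ± 26.7 CPM (SD, n = 21) in KB1P and 89.1 ± 141 (SD, n = 23) in KB2P; 1 of the 21 lay below all KB2P tumours. Medians of Xaf1 were closer, 27.8 in KB1P, 25.6 in KB1PM and 40.1 in KB2P, whose highest tumour, 13, had 590.9. The other 31 genes did not pass, and 25 of the 32 estimates were positive, with a median of 0.27. The estimate for Rsad2 was 1.20 (adjusted p = 0.104). Xaf1 lost its call in 5 of 10 alternatives. With KB2P of run 2749 only, 4 other genes were called, all higher in KB1P, beside 1219 of 18190 genes. Limma called 1, also higher, beside 1797 of 18211, with a median of 0.89. KB1PM against KB1P titles gave no call by edgeR, beside 0.887% of all genes. Of the 32, 1 had an unadjusted p under 0.05, beside 2159 of 18492 genes. All 32 estimates were positive, with a median of 0.73, and Oas2 had 1.24 (adjusted p = 0.591). By limma the median was 0.28, with 28 positive. Leaving out KB2P tumour 30 and KB1PM tumour 8 in the edgeR fit gave a median of 0.85. Title and run cannot be told apart here.

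KP adenocarcinomas against KB1P gave 7 higher of 32 (21.9%), beside 27.3% of all genes called, so the share was below the background. The GTPases Iigp1, Gbp2 and Igtp rose by 2.84 (SE 0.73, adjusted p = 0.00226), 2.44 (SE 0.56, adjusted p = 0.000616) and 1.97. Ifit3, Rsad2 and Ifit2 rose by 2.38, 2.04 and 2.01, and the factor Irf1 by 0.88 (SE 0.34, adjusted p = 0.0467). Irf1 lost its call in 6 of 11 alternatives, among them limma, no filter, and leaving out KB2P tumour 30 and KB1PM tumour 8. Ifi44 had 1.98 (adjusted p = 0.0623) and Ifit1 1.73. Of the 5 KP tumours, 1 lay above all 21 KB1P tumours for 6 of these 7 genes, and 2 did for Iigp1. That 1 tumour was 90.01A: without it none of the 32 was called, beside 3105 of 18472 genes. The median of the 32 fell from 1.05 to 0.49. Gbp2 then had 1.04 (adjusted p = 0.252) and Iigp1 1.71 (adjusted p = 0.138). All 8 macrophage markers also rose in this comparison, from sums of 173 to 1360 CPM in KB1P to sums of 405.0 to 5308 in KP, and none of the 9 epithelial markers was called; their part was not tested.

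KP adenocarcinomas against KB2P gave 10 higher of 32 (31.3%), beside 35.3% of all genes called, again no more than the background in this fit. Alternatives lay on both sides of the background. Limma called 20 of 32 beside 6278 of 18211 genes, and edgeR without 90.01A called 5 of 32 beside 4607 of 18472. Iigp1 rose by 3.52 (SE 0.70, adjusted p = 6.35e-05), Rsad2 by 3.24 (SE 0.69, adjusted p = 0.000154), Gbp2 by 3.12 (SE 0.54, adjusted p = 4.48e-06) and Ifit2 by 2.77 (SE 0.53, adjusted p = 3.38e-05). Igtp and the mitochondrial nucleotide kinase Cmpk2 rose by 2.36 and 2.20. Parp14, an ADP-ribosyltransferase, rose by 1.84. The RNA sensors Ifih1 (MDA5) and Ddx58 (RIG-I) rose by 1.68 and 1.32, and Irf1 by 1.14. Ifit3 had 1.91 (adjusted p = 0.0582), and Xaf1 had the 1 negative estimate of the 32, -0.80. For each called gene 1 or 2 of the 5 KP tumours lay above all 23 KB2P tumours. Gbp2, Ifit2, Iigp1 and Rsad2 kept their calls in 13 of 13 alternatives. Without 90.01A they had 1.76, 1.75, 2.42 and 2.05, with adjusted p of 0.0206, 0.0217, 0.0147 and 0.0388, and Ddx58 was the fifth call. Here too the 8 macrophage markers rose, and genotype and run cannot be told apart.

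The 3 L1363P adenocarcinomas gave no call. Against KB1P no gene of the 32 was called by edgeR, beside 5.00% of all genes, with a median of -0.13. None of the 32 had an unadjusted p under 0.05, beside 3212 of 18492 genes. Against KB2P none was called by edgeR, beside 9.10% of all genes, and 1 had an unadjusted p under 0.05, beside 4446 of 18492 genes. The median was 0.10 by edgeR, 1.23 by limma and 0.98 with KB2P of run 2749 only. With 3 adenocarcinomas the sign of both medians turned when 1 tumour was left out, 26.2 and 7.2 respectively, to 0.12 and -0.20.

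**Figure D4:**
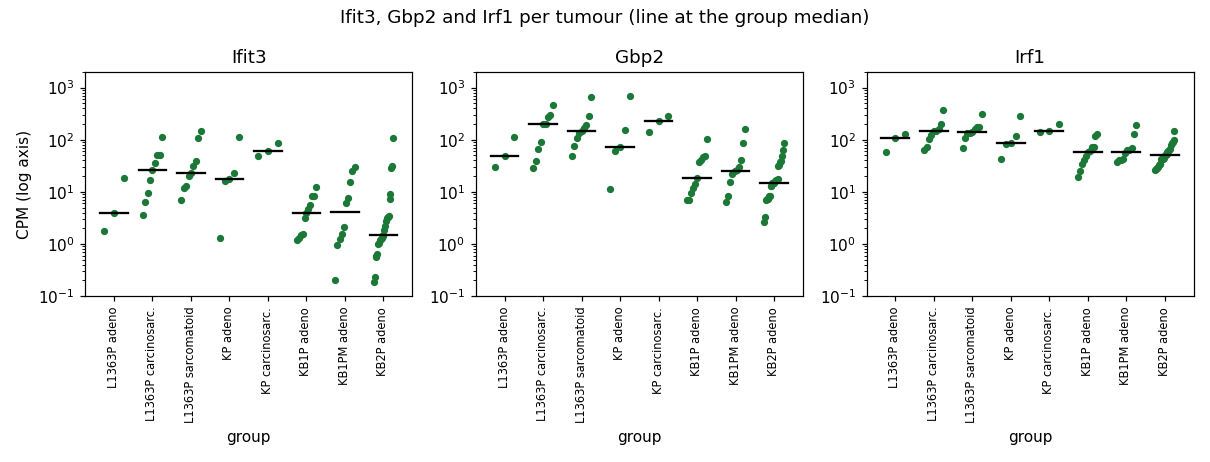
CPM of Ifit3, Gbp2 and Irf1 in each tumour, by group, on a log axis, 1 point per tumour, with a line at the group's median. In the KP adenocarcinomas 90.01A is the highest point and 89.01A the lowest.

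Within KB2P, 1 of the 32 genes passed between runs. Mean log2 CPM over the 32 had a median of 4.39 in run 2459 (9 tumours), 2.57 in run 2749 (12) and 2.09 in run 2802 (2). All 32 estimates were lower in run 2749 than in run 2459, with a median of -1.33. An unadjusted p under 0.05 was seen for 11 of the 32, beside 2795 of 14527 genes. The 1 call stands beside 0.675% of all genes: Isg20, an RNA exonuclease, fell by 2.07 on the log2 scale (-2.07, SE 0.45, adjusted p = 0.0386). Isg20 ran from 4.40 to 63.0 CPM around 7.58 in run 2459 and from 1.94 to 8.25 around 3.53 in run 2749, with 8 of the 12 below all 9. Irf7 had -2.90 (adjusted p = 0.0815) and Oasl1 -2.85 (adjusted p = 0.0709). Without KB2P tumour 30 the Isg20 call was lost and the median was -1.28. The medians by run were from 2.82 (run 3528, 2 tumours) to 4.92 (run 1857, 6 tumours) under KB1P titles and from 2.81 (run 1725, 3 tumours) to 4.32 (run 1756, 7 tumours) under KB1PM titles, with no test between those runs. Whether the runs differ in tumours or in handling was not tested.

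Spread between tumours of 1 group was wide. The median SD of the 32 genes on the log2 CPM scale was 2.06 in KP adenocarcinomas (1.86 without 90.01A), 1.79 in KB2P, 1.76 in KB1PM, 1.46 in L1363P carcinosarcomas, 1.24 in sarcomatoid tumours and in KB1P, and 0.84 in L1363P adenocarcinomas. The same median over all 18492 genes was between 0.34 and 0.72. In 5 of the 8 groups all 32 genes exceeded the all-gene median; it was 31 in KB2P and 27 in L1363P adenocarcinomas. The KP carcinosarcomas were even, at 0.36 against 0.34, with 17 of 32 above. Across groups Usp18 (2.11), Oas3 (2.06), Ifi44 (2.00), Ifit1 (2.00) and Irf7 (1.93) had the largest median SD. Irf1 (0.77), Irf9 (0.78), Ddx58 (0.85), Stat2 (0.96) and Isg20 (1.02) had the smallest, and 3 of these 5 are transcription factors.

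**Figure D5:**
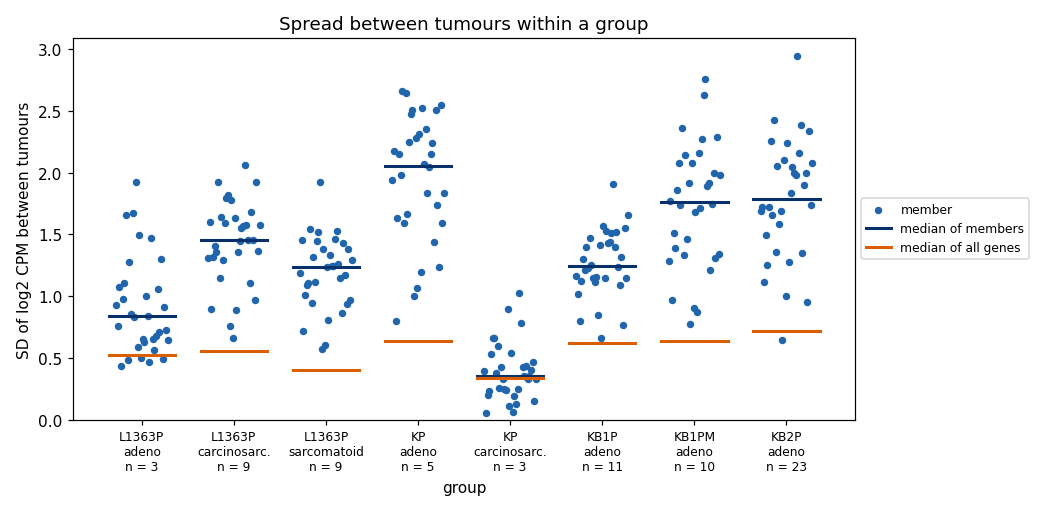
SD of log2 CPM between tumours of each group for the 32 genes, with the median over all genes drawn beside them. The 2 medians are closest in the KP carcinosarcomas, 0.36 against 0.34, and farthest apart in the KP adenocarcinomas.

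The genes rose and fell together from tumour to tumour. With group means removed, the mean Pearson correlation over the 496 pairs was 0.83 across the 73 tumours (lowest 0.42, highest 0.97, all above 0), against 0.0026 for all genes. These points share library, depth and composition, so the values are a description. The 4 GTPases correlated with the other genes at a mean of 0.80. Each gene's correlation with the mean of the others was highest for Ifit1 (0.98) and lowest for Irf1 (0.68) and Isg20 (0.69), with Ifit2 and Gbp2 at 0.79. In KB1P the lowest pair was at 0.0079. In L1363P sarcomatoid tumour 20 held the highest value of 30 of the 32 genes, and in KP adenocarcinomas 90.01A held 31 while 89.01A held the lowest of all 32.

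Leukocyte markers moved with the set over the 73 tumours, but not in every group. Within groups, neutrophil markers had r = -0.02 with the mean of the 32 genes in KB2P and 0.83 in KB1P. T and NK markers had -0.10 in KB1PM and 0.40 in KB2P, and macrophage markers 0.23 in KB2P and 0.68 in KB1P. Against the mean of the 32 genes, with group means removed, Ptprc, the pan-leukocyte phosphatase CD45, had r = 0.54, the macrophage markers 0.47, B and plasma cells 0.42, T and NK cells 0.35, dendritic cells 0.33 and neutrophils 0.32. The epithelial markers had 0.05, fibroblasts 0.06, endothelium -0.07 and the plasmacytoid dendritic list 0.03. That list (Siglech, Klk1, Ly6d and Tcf4) summed to a median of 202.6 CPM in KB2P, against 37.8 for the dendritic list. Whether it measures plasmacytoid dendritic cells in these tumours was not tested. Summed macrophage markers ranged from 636 to 4590 CPM in L1363P carcinosarcomas, 173 to 1360 in KB1P and 115 to 1345 in KB2P. No marker of any list was at 0 throughout a group, and the part of these cells in the levels was not tested. Sarcomatoid tumour 37 had macrophage markers at 3906 CPM and the lowest mean of its group, 4.14, while tumour 20 had 4091 and the highest, 7.70. Their T and NK markers summed to 7.17 and 93.5 CPM, and Ptprc stood at 236.5 and 381.2. Across the 9 sarcomatoid tumours the mean had r = 0.83 with T and NK markers, 0.71 with Ptprc and 0.47 with macrophage markers. It had 0.17 with neutrophil markers and -0.32 with the plasmacytoid dendritic list.

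Across the 23 KB2P tumours, the correlation with Ptprc had a median of 0.36 over the 32 genes, from 0.07 for Ifit2 to 0.58 for Gbp2, and that with Ifng a median of 0.27. Over 64 permutation tests none passed adjustment, with lowest adjusted p of 0.26 (Pearson) and 0.151 (Spearman) for Ptprc and 0.277 and 0.289 for Ifng. For Ptprc 8 Pearson and 11 Spearman tests had an unadjusted p under 0.05. The median with Ptprc was 0.33 without the 2 farthest tumours. It was 0.50 within run 2459 and 0.03 within run 2749; the difference between the runs was not tested. The median with Ifng was 0.46 in run 2459 and -0.16 in run 2749. Ifng had a count of 1 in each of KB2P tumours 2, 8, 13 and 38, and none in the other KB2P tumours. Of these only tumour 38 was in run 2749. With so few counts, these correlations and tests cannot decide whether the genes follow Ifng.

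The other genes of the pathway, 63 in a list of ligands, receptors, kinases, regulators and targets, were tested for 52. In sarcomatoid tumours against L1363P adenocarcinomas 14 were higher and 2 lower, 16 of 52 beside 30.6% of all genes, a share near the background. Ifnlr1, the interferon lambda receptor, fell by 5.71 (-5.71, adjusted p = 0.00024), and the endosomal RNA sensor Tlr7, Trim30a and Ifi204 rose by 2.65, 2.50 and 2.39. In carcinosarcomas against adenocarcinomas of L1363P 1 passed, Socs3, a feedback inhibitor of JAK signalling, at 1.44. Sarcomatoid tumours against carcinosarcomas had 3 higher and 3 lower, Ifnlr1 at -4.64 among the latter. In KP adenocarcinomas 15 were higher and 1 lower than in KB1P, and 22 higher and 2 lower than in KB2P, beside 27.3% and 35.3% of all genes. Ifng was at 2.89 and 4.29 in those 2 comparisons, and Cxcl9, a T-cell chemokine induced by interferon gamma, at 2.67 and 2.63. These rested on KP adenocarcinoma 90.01A: without it 8 were higher and 1 lower of 51 in each comparison. Ifng then had -1.11 (adjusted p = 0.638) and 0.30 (adjusted p = 0.893), and Cxcl9 0.24 in both (adjusted p = 0.903 and 0.888). Tlr7 kept its call, at 1.39 and 2.08. KB1P against KB2P had 2 higher and 1 lower: the DNA sensor gene Cgas at 0.92, the kinase gene Jak1 at 0.30 and Rnaseh2c, an RNase H2 subunit, at -0.62. Rnaseh2c was lower in run 5625 against every other genotype, at -2.09 and -2.71 for KP and -1.78 and -2.40 for L1363P. L1363P against KB2P had Cgas higher, at 2.05. The KB2P runs gave 0 called of 50 tested by edgeR. The slope gave 9 lower of 48, Cxcl9 at -0.40 per 10 points among them, beside 8.71% of all genes. Without carcinosarcomas 4 and 17 the slope called 0 of 12534 genes, so these 9 calls rest on those 2 tumours.

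Ligands were close to the limit of these libraries. Ifng had counts in 26 of the 73 tumours, 146 in all, with 43 in L1363P carcinosarcoma 4 (3.18 CPM). In the KP adenocarcinomas 27 of its counts were in 90.01A, at 2.03 CPM. Ifnb1 had 72 counts in 27 tumours and at most 12, in 90.01A, and was not tested.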

How the data were processed

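Mammary tumours were sequenced from polyadenylated RNA with stranded libraries, per the labels' protocols. Reads were processed with cutadapt 2.10, STAR 2.7.3a and featureCounts 2.0.0 against mm10, with DESeq named as well, per the submitters' processing notes; how the counting treated strand is not stated. The authors deposited raw counts per gene and a table of log2 values. The deposited log2 values came out as whole counts, within 0.05 of a count for 100% of values, after 1 factor per library. The 24 rows with date-like symbols held 0.169% of counts.

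Counts were fitted with edgeR 4.0.16 (R 4.3.3; quasi-likelihood test, TMM, genes filtered at a minimum count of 10) on the tumours of run 5625 or on all 73, with Benjamini-Hochberg adjustment over all genes tested; Irgm1 was tested with limma 3.58.1 on the log2 table. CPM levels are scaled over all 73 libraries, with a prior count of 2 on log2 scales. Permutation tests used scipy 1.17.1 and 100000 resamples. DESeq2 1.42.0, limma, no filter, other scaling, a prior count of 0.5, left-out tumours and compared groups alone were alternatives. The models were tested on simulated data.

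The genes and lists were chosen with earlier results of these data known. All 33 genes are accounted for. In each comparison up to 8 called genes with the largest fold change and up to 4 uncalled are named (all 10 called in KP against KB2P), and up to 4 called pathway genes with Ifng and Ifnb1. The values of 1 gene of this rule are not reported here. Ifit1 is given in every group, by tumour in the smaller groups and as lowest, median and highest in the larger ones. Isg15, Irf7, Usp18, Gbp2 and Irf1, and genes called most often, are given in some of the groups. Leaving out KB2P tumour 30 and KB1PM tumour 8, or carcinosarcoma 54.2, taking KB2P of 1 run, and the pathway genes and SD without 90.01A were chosen after seeing the data.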

Additional observations from a re-analysis of the deposited data

Results flagged for a closer look

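In the 5 KP adenocarcinomas, tumour 89.01A stood apart below the other 4 for 6 of the 32 genes. Its gap to the nearest tumour, as a share of the group's whole range of log2 CPM, was 0.785 for Ifih1, 0.782 for Irf9, 0.748 for Usp18, 0.744 for Rtp4, 0.724 for Ifi44 and 0.717 for Oasl2. In all, 128 gene and group pairs were tested, and chance flags about 1 in 20. The 6 genes move together, and the mean over the 32 genes did not pass the same rule. The 89.01A library held the lowest macrophage sum of its group, 405.0 CPM, and the highest epithelial sum, 6005 CPM; their part was not tested.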

How the results depend on the processing

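Counts of called genes, of 32, changed with the tool and the tumours. Sarcomatoid against adenocarcinoma in L1363P (1) gave 4 by DESeq2, beside 5676 of 15953 genes. It gave 3 with the compared groups alone, beside 5485 of 14824, and 0 with no filter, beside 4631 of 28325. Leaving out an adenocarcinoma gave 0 to 0. KB1P against KB2P (1) gave 0 with the compared groups alone, beside 1521 of 15909 genes. With KB2P of run 2749 only it gave 4, beside 1219 of 18190, all 4 higher where the main call was lower. KP against KB1P (7) gave 3 by limma, beside 4737 of 18211 genes. Without 1 KP adenocarcinoma it gave from 0 (without 90.01A, beside 3105 of 18472) to 10 (without 89.01A, beside 4865 of 18483). KP against KB2P (10) gave 20 by limma, 5 and 22 with KB2P of run 2459 or 2749 only, and 5 (without 90.01A) to 16 (without 89.01A). All genes called in KP against KB2P were 6278 of 18211 by limma, and 6629 of 18053 and 5570 of 18190 with those runs. They were 4607 of 18472 without 90.01A and 6336 of 18483 without 89.01A. The KB2P runs (1) gave 8 by DESeq2, beside 793 of 14527 genes. They gave 0 by limma, beside 50 of 14352, and 0 without tumour 30, beside 47 of 14473. The slope (0) gave 2 by DESeq2, beside 2247 of 12037, and 1 by limma, beside 1174 of 11911.

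Medians that changed sign were sarcomatoid against carcinosarcoma without carcinosarcomas 4 and 17 (0.25), the slope without them (0.27), the interaction by limma (-0.58) and, leaving out 1 tumour, -0.18 (without 90.01A) to 0.88, KB1P against KB2P with run 2459 only (-0.33), L1363P against KB1P by limma (0.35) and, leaving out 1 adenocarcinoma, -0.55 to 0.12 (without 26.2), and L1363P against KB2P with run 2459 only (-0.46) and, leaving out 1 adenocarcinoma, -0.20 (without 7.2) to 0.49. The cause was not tested. With the tumour number as a replicate block over 5 shared numbers, KB1P against KB2P gave 0 calls and a median of -0.88; the same libraries unblocked gave 0 and -1.22. For KB1PM against KB1P the block changed no call and moved the median from 0.75 in the same libraries to 0.27. Same-numbered tumours correlated at 0.056 to 0.35 and, for KB1PM and KB1P, at -0.17 to 0.17, best with their own number in 4 of 5 and 0 of 8. The labels do not tie the numbers across titles, and in each comparison at least 1 pair was under 0.1, so they were not taken as pairs; the 4 of 5 is a hint from the data. All 16 alternatives of the median SD and all 4 of the median correlation stayed within their tolerance. For the SD, the tolerance was the SD between the genes' own SDs in a group. These alternatives changed the prior count or used the log2 table, which held nearly the same counts, so they are weak checks. Values by run are not among them: the median correlation was 0.50 (run 2459) and 0.03 (run 2749) for Ptprc, and 0.46 and -0.16 for Ifng. Ligands with few counts limit what depth can show.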
